A study of Mus musculus with 2 samples.

Results

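The G2/M module described here holds 40 genes that act in late G2 phase and mitosis, among them Mki67, Top2a, Cdk1, Ccnb1, Plk1, Ube2c and Cenpf. The members were taken as a given list of symbols, and 40 of 40 were present in both count tables, which share 22023 genes. The series compared single cells of the fetal mouse pancreas at E15.5 from Mettl3pKO mice, which lack the RNA methyltransferase gene Mettl3 specifically in Pdx1+ pancreatic progenitor cells, with those from WT mice, and has 1 library per genotype. Pdx1+ progenitors give rise to the acinar, ductal and endocrine cells, whereas mesenchymal and blood cells of the same pancreata have another origin. The labels name neither the Cre line nor the number of embryos pooled in a library.

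Entry into mitosis is driven by the kinase Cdk1 bound to cyclins A and B, which are made as the cell approaches division and destroyed at anaphase. Their genes and those of the spindle, kinetochore and condensin machinery are held silent in resting cells by the DREAM repressor complex and switched on late in the cycle by B-Myb and FoxM1, largely through promoter elements called CHR and CCAAT boxes. In the fetal pancreas, acinar cells, duct cells, trunk progenitors and mesenchyme divide, whereas endocrine cells mostly leave the cell cycle as they form from Neurog3+ progenitors. Mettl3 is the catalytic subunit of the complex that writes N6-methyladenosine (m6A), a mark that alters the stability and translation of many mRNAs.

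The tables held 3624 Mettl3pKO cells with a median of 16481 unique molecular identifiers (UMIs, the count of distinct captured mRNA molecules) and 6384 WT cells with a median of 10824. The shallowest deposited cell had 10719 UMIs in Mettl3pKO and 3803 in WT. Because of this gap, all levels below come from cells with 13000 or more UMIs, 2881 in Mettl3pKO and 1945 in WT after filtering, and 33 cell index numbers occurred in both tables. Mettl3 itself was at 7.92 UMIs per 1000000 UMIs (CPM) in Mettl3pKO epithelial cells, from 364 UMIs, and at 11.8 CPM in WT epithelial cells, from 370 UMIs, a ratio of 0.669 (95% interval 0.577 to 0.775). By epithelial class the ratio lay closer to 1, at 0.733 in acinar-like, 0.727 in duct and trunk-like, 0.735 in alpha-like and 0.761 in beta-like cells. The same ratio was 0.747 in mesenchyme-like cells (0.439 to 1.28; 35 and 27 UMIs), so the Mettl3 count did not set the epithelium apart from a lineage in which the deletion is not labelled (the deleted part of the gene was not given). In erythroid-like cells, where it is not labelled either, the ratio was 0.229 (0.0780 to 0.556; 6 and 31 UMIs). With 1 library per genotype no test of any difference was possible. The intervals printed here cover counting error only, and differences between animals, pools or library runs cannot be told apart from genotype.

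Promoter sequence is shown because the CHR and CCAAT elements are what late cell cycle genes are known to share. Of the 40 members, 35 had an entry in the RefSeq promoter table (build GRCm38.p6, 250 bases before the transcription start to 50 after it), with 36 windows; Aurkb, Ccna2, Cdca2, Smc4 and Tpx2 had none. The CHR element, searched as TTTGAA on both strands, was found in 25 of the 36 windows (69.4%), against 17.9% of all 32851 windows in the table. CCAAT, searched on both strands and counted separately, was found in 26 of the 36 (72.2%), against 37.4% of all windows, and both motifs together in 20 (55.6%), against 6.95%. A match is a description of letters and does not show that a factor binds there. The stretches below run from 120 bases before the start to 30 after it, 5′ to 3′ on the gene's strand, with the CHR and CCAAT matches of either strand in capitals; Cenpf and Ckap2l are members that took a larger share of the module in Mettl3pKO acinar-like and duct and trunk-like cells, Cdc20 one that took a smaller share in both, and Ccnb2 one that took a smaller share in duct and trunk-like cells.
Cenpf, chr1:189688057-189688206, strand -: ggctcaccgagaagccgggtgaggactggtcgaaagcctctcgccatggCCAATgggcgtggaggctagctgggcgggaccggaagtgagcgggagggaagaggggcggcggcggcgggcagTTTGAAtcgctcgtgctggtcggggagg
Ckap2l, chr2:129297183-129297332, strand -: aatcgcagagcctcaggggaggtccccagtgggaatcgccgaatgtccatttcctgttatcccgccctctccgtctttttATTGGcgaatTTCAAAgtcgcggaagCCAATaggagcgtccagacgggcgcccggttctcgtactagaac
Cdc20, chr4:118437314-118437463, strand -: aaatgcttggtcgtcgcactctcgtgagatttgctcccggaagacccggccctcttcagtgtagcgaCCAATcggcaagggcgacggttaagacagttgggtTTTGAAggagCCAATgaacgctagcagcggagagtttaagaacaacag
Ccnb2, chr9:70421525-70421674, strand -: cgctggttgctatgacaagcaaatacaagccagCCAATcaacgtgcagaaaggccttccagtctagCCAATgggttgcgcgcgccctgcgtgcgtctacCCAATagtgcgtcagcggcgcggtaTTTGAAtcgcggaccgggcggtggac
All 4 windows hold both elements, but they are picked examples, and 20 of the 36 windows hold both. Nusap1, which took a smaller share in acinar-like and duct and trunk-like cells, had neither element. Ndc80, also with a smaller share in these classes, had no CCAAT match. Gtse1, with a larger share in acinar-like cells, had no CHR match.

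Summed over the 40 members, the G2/M level varied widely between classes. Among classes with 30 or more deep cells in the library, it was highest in Mettl3pKO in mesenchyme-like cells at 9281 CPM, followed by duct and trunk-like cells at 6821 CPM, mast cell and granulocyte-like cells at 5338 CPM, mesothelium-like cells at 4518 CPM, acinar-like cells at 4049.5 CPM, erythroid-like cells at 3862 CPM, alpha-like cells at 1949 CPM and beta-like cells at 1435 CPM. In WT, where 6 classes reached 30 cells, the order was mesenchyme-like (9405 CPM), erythroid-like (7617 CPM), duct and trunk-like (6400.0 CPM), acinar-like (3586 CPM), alpha-like (1607 CPM) and beta-like (492 CPM). Neighbours in either order were separated by more than their counting intervals. WT classes with fewer cells lay among or above these, with pericyte and smooth muscle-like cells at 10878 CPM (13 cells), mesothelium-like cells at 8847 CPM (25 cells) and macrophage-like cells at 7840 CPM (12 cells). Among the same classes, the highest level lay in mesenchyme-like cells for 33 genes in Mettl3pKO and 29 genes in WT. The lowest lay in beta-like cells for 31 genes in Mettl3pKO and for 40 of 40 in WT. For comparison with RNA that is free in the cell suspension, 232 WT Fev precursor-like cells of any depth, endocrine precursors that have left the cycle, stood at 193 CPM, and 1.72% of them (4 cells) had 10 or more member UMIs at a median depth of 8472 UMIs.

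**Figure D1:**
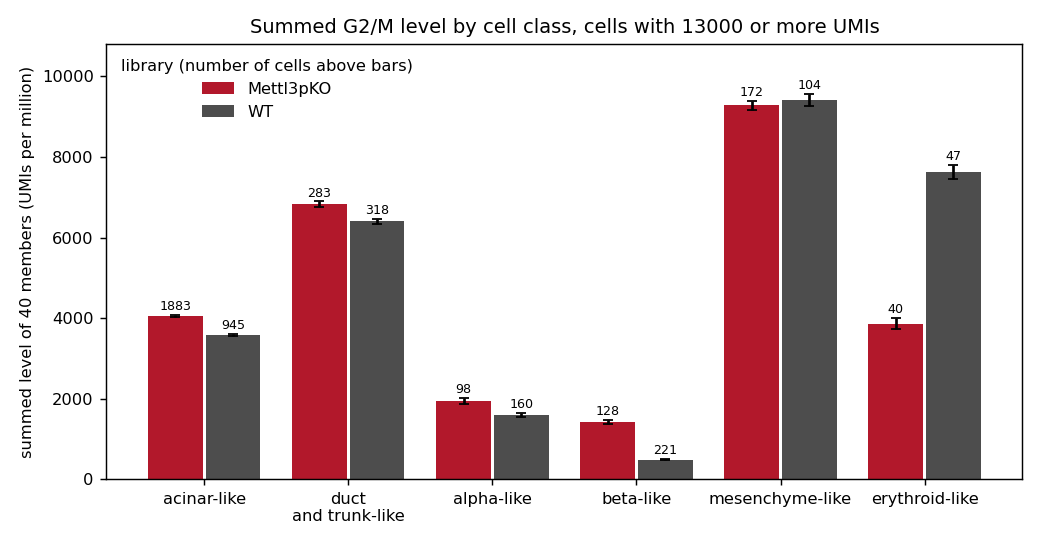
Summed level of the 40 G2/M members in CPM (vertical axis, linear from 0) in 6 cell classes, Mettl3pKO beside WT; error bars are exact Poisson 95% intervals and the digits over the bars are numbers of cells. Beta-like cells stand at 1435 CPM in Mettl3pKO against 492 CPM in WT, while mesenchyme-like cells stand at 9281 CPM against 9405 CPM.

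Beta-like cells, the insulin-producing class, had the largest ratio among the 6 classes compared, and all their cells came from 1 cluster. The module stood at 1435 CPM in 128 Mettl3pKO cells and at 492 CPM in 221 WT cells, a ratio of 2.91 (2.75 to 3.09). All 40 members were at least 1.5-fold higher in Mettl3pKO, where 7.2% of the 10851 genes measured in the class were, and their median log2 ratio was 1.63 against -0.02 over all genes. The members are read in the same few cells, so these are not 40 separate observations.

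In every role group the summed ratio was above 1.5 in beta-like cells. Cdk1, the kinase of mitotic entry, was at 86.0 CPM in Mettl3pKO and 21.5 CPM in WT (ratio 4.00, 3.08 to 5.23), and its partner cyclin Ccnb1 was at 39.2 and 9.22 CPM in Mettl3pKO and WT (4.25, 2.86 to 6.46). Mki67, which coats mitotic chromosomes, was at 82.0 CPM in Mettl3pKO and 25.6 CPM in WT (3.20, 2.50 to 4.13). Top2a, the topoisomerase that untangles sister chromatids, was at 132 CPM in Mettl3pKO and 44.6 CPM in WT (2.96, 2.45 to 3.59). By the interval bound nearest 1, the highest members were Cenpf, a kinetochore protein, at 35.2 CPM in Mettl3pKO and 5.63 CPM in WT (6.25, 3.86 to 10.5), and Cdca3, a trigger of mitotic entry, at 24.96 CPM in Mettl3pKO and 3.59 CPM in WT (6.96, 3.83 to 13.5). The lowest were Anln, an actin-binding protein of the cytokinetic ring, with 21 UMIs in Mettl3pKO and 22 in WT (1.66, 0.869 to 3.17), and Cdc20, the activator of the anaphase-promoting complex, with 34 and 35 UMIs in Mettl3pKO and WT (1.69, 1.02 to 2.79). An interval above 1 was found for 39 of 40 members (all but Anln; 7.14% of all genes) and one below 1 for 0 of 40 (9.39% of all genes), and 0 of 40 were at least 1.5-fold lower (7.15%). By role, the ratios of the summed levels ran between 1.66 for cytokinesis (Anln alone) and 3.75 for the chromosomal passenger complex.

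The difference lay in the number of member-rich cells and in their content. After each cell was thinned to 13000 UMIs, 26 of 128 Mettl3pKO beta-like cells (20.3%, exact Clopper-Pearson 95% interval 13.7 to 28.3) and 18 of 221 WT ones (8.14%, 4.90 to 12.6) had 10 or more member UMIs. Those cells held 73.5 ± 63.2 member UMIs each in Mettl3pKO and 47.3 ± 53.5 in WT (SD over cells, which are not replicates), whereas the remaining cells averaged 1.59 in Mettl3pKO and 1.36 in WT. Without thinning the shares were 21.1% in Mettl3pKO and 8.14% in WT. For the Fev precursor-like cells above the share was 1.72%, at lower depth. In unthinned counts, 7 of the Mettl3pKO cells held 50% of the member UMIs and 5 of the WT cells did, and 1 WT cell held 22.8% of its library's. Leaving out the cell with most member UMIs in each library gave a ratio of 3.38.

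The member-rich beta-like cells held beta markers, but their class was named from these markers, so this is not separate support for their identity. Scaled by each cell's own depth rather than thinned, 24 Mettl3pKO and 17 WT cells were member-rich. Their 8 beta markers summed to 202181 CPM in Mettl3pKO and 199832 CPM in WT, none at 0 in WT or Mettl3pKO. Ins1 and Ins2 made up most of this sum, at 82354 and 84133 CPM in Mettl3pKO and 82832 and 87457 CPM in WT. Each of these cells had at least 1480 UMIs of Ins1 and Ins2 in Mettl3pKO and 2371 in WT. Their 10 acinar markers summed to 1636 CPM in Mettl3pKO and 2183 CPM in WT, with 1 marker at 0 in each, against 1785 CPM in the remaining Mettl3pKO beta-like cells and 1600 CPM in the remaining WT ones. Their 10 duct and trunk markers summed to 241 and 139 CPM in Mettl3pKO and WT, with 1 marker at 0 in each library. Neurog3, which marks endocrine progenitors, was at 0 in the member-rich Mettl3pKO cells and at 5.24 CPM in the WT ones. Among beta-like cells whose acinar markers were at or below the WT median of the class, 39 in Mettl3pKO and 111 in WT, the module was at 1421 CPM in Mettl3pKO and 309 CPM in WT (ratio 4.60, 4.15 to 5.10), a value that rests on 6 Mettl3pKO and 4 WT member-rich cells. Their median doublet score, which rates likeness to a mixture of 2 cells, was 0.0587 in Mettl3pKO and 0.0301 in WT, above the 0.00920 and 0.00640 of the other beta-like cells in Mettl3pKO and WT; the ratio was 1.97 with no doublets removed, and the part of doublets in it was not tested.

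**Figure D2:**
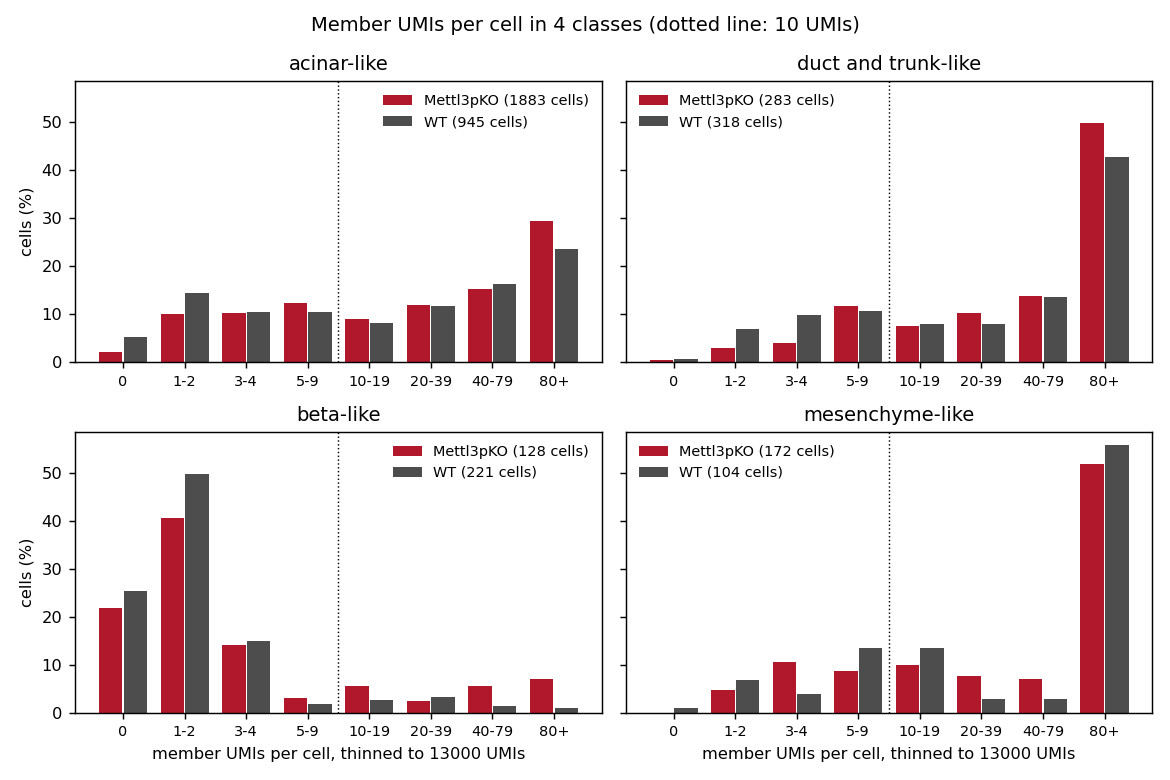
Cells (percent of the class, vertical axis) by number of member UMIs after thinning to 13000 UMIs (horizontal axis) in acinar-like, duct and trunk-like, beta-like and mesenchyme-like cells, Mettl3pKO left of WT in each bin; the dotted line marks 10 UMIs. In beta-like cells 7.03% of Mettl3pKO and 0.905% of WT cells reach 80 or more, whereas in mesenchyme-like cells 51.7% and 55.8% of Mettl3pKO and WT cells do.

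Alpha-like cells, which make glucagon, showed a smaller and less even difference. The module was at 1949 CPM in 98 Mettl3pKO cells and 1607 CPM in 160 WT cells (ratio 1.21, 1.16 to 1.27), with 10 of 40 members at least 1.5-fold higher (7.1% of all genes) and 1 at least 1.5-fold lower (6.39% of all genes). An interval above 1 was found for 12 members (6.77% of all genes) and one below 1 for 1 member (6.48%). Nuf2, a subunit of the Ndc80 kinetochore complex, was at 34.0 CPM in Mettl3pKO and 12.3 CPM in WT (2.78, 1.77 to 4.41), and the spindle protein Ckap2l at 43.9 CPM in Mettl3pKO and 21.5 CPM in WT (2.04, 1.42 to 2.94). At the other end Anln was at 12.998 and 21.9 CPM in Mettl3pKO and WT (0.593, 0.342 to 0.990) and the spindle protein Nusap1 at 24.1 and 32.0 CPM in Mettl3pKO and WT (0.756, 0.504 to 1.12). Mki67 was at 135 CPM in Mettl3pKO and 93.6 CPM in WT (1.44, 1.20 to 1.73), while Cdk1 (0.892, 0.714 to 1.11), Ccnb1 (1.18, 0.904 to 1.52) and Top2a (1.07, 0.913 to 1.25) had intervals that include 1. The share of cells with 10 or more member UMIs was 16.3% in Mettl3pKO (16 cells; 9.63 to 25.2) and 10.6% in WT (17 cells; 6.31 to 16.5), and these intervals overlap. Scaled by each cell's own depth, member-rich alpha-like cells had a median doublet score of 0.119 in Mettl3pKO and 0.118 in WT (15 cells each). The remaining ones stood at 0.0051 and 0.0045 in Mettl3pKO and WT. Ins1 was at 1479 CPM in the member-rich and 367 CPM in the remaining Mettl3pKO cells, but at 105 and 271 CPM in the WT ones. The part of doublets was not tested. A total of 4 Mettl3pKO and 6 WT cells held 50% of the member UMIs of the class, and the ratio did not hold over subsets of cells. It was 3.17 with 37 members at least 1.5-fold higher among Y-positive, Xist-negative cells (those with a UMI of the one and none of the other; 69 Mettl3pKO and 70 WT cells), and 0.417 with 0 such members among Xist-positive, Y-negative cells (18 Mettl3pKO and 72 WT cells). The share of all genes past 1.5-fold is not given for these subsets, so both counts lack a background. Among cells with acinar markers at or below the WT median of the class the summed ratio was 0.882 (0.794 to 0.979; 27 Mettl3pKO and 80 WT cells, of which 1 and 5 were member-rich).

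Acinar-like cells, the digestive-enzyme lineage and the largest class, differed little in the summed level. It was 4049.5 CPM in 1883 Mettl3pKO cells and 3586 CPM in 945 WT cells, a ratio of 1.13 (1.12 to 1.14). All genes measured in the class were shifted to Mettl3pKO by a median of 0.12 on the log2 scale, and relative to that shift the ratio was 1.04. A ratio of at least 1.5 was reached by 4 of 40 members (18.2% of all 13329 genes measured reached it) and a ratio of at most 1/1.5 by 0 of 40 (7.55% of all genes). The members' share was thus below the background in both directions. An interval above 1 was found for 26 members (38.1% of all genes) and one below 1 for 4 members (21.7%).

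Among the regulators, Cdk1 was at 200.4 CPM in Mettl3pKO acinar-like cells and 158 CPM in WT ones (1.27, 1.21 to 1.32) and Ccnb1 at 114 CPM in Mettl3pKO and 99.05 CPM in WT (1.15, 1.09 to 1.21). Plk1, the kinase that drives centrosome maturation and cytokinesis, was at 63.1 CPM in Mettl3pKO and 51.0 CPM in WT (1.24, 1.15 to 1.34). The remaining cyclins lay at 1.11 for Ccnb2 and 0.964 for Ccna2, and the other mitotic kinases between 1.05 for the checkpoint kinase Bub1 and 1.35 for the centrosomal kinase Nek2. Ube2c, the ubiquitin-conjugating enzyme of the anaphase-promoting complex, was at 435 CPM in Mettl3pKO and 379.6 CPM in WT (1.15, 1.11 to 1.18).

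The structural members spread more widely in acinar-like cells. Mki67 was at 338 CPM in Mettl3pKO and 249.9 CPM in WT (1.35, 1.31 to 1.40), whereas Top2a was at 275 CPM in Mettl3pKO and 262 CPM in WT (1.05, 1.02 to 1.09), which turns to 0.966 relative to the shift of all genes. The highest member was Cdca2, a chromosomal targeting subunit of protein phosphatase 1 (chr14:67676331-67715841, strand -, GENCODE vM21 on GRCm38), at 48.3 CPM in Mettl3pKO and 23.8 CPM in WT (2.03, 1.83 to 2.26). It was followed by Cenpf (chr1:189640606-189688086, strand -) at 109 CPM in Mettl3pKO and 58.4 CPM in WT (1.86, 1.74 to 2.00), Gtse1, a microtubule plus-end protein, at 52.3 CPM in Mettl3pKO and 31.0 CPM in WT (1.69, 1.54 to 1.86), and Ckap2l at 83.3 CPM in Mettl3pKO and 51.9 CPM in WT (1.60, 1.49 to 1.73). These 4 are the members past 1.5-fold.

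At the low end of acinar-like cells stood Smc4, a core subunit of condensin, at 279.7 CPM in Mettl3pKO and 327 CPM in WT (0.857, 0.830 to 0.884). Cdca8, the borealin subunit of the chromosomal passenger complex, was at 76.7 CPM in Mettl3pKO and 87.2 CPM in WT (0.880, 0.827 to 0.936). Cdc20 was at 96.8 CPM in Mettl3pKO and 108 CPM in WT (0.899, 0.851 to 0.9499), and Nusap1 at 59.8 CPM in Mettl3pKO and 66.2 CPM in WT (0.903, 0.842 to 0.970). All 4 levels turned to the other side of 1 when cells of every depth were kept (ratios 1.01 to 1.09). The role groups ran between 1.06 for the chromosomal passenger complex and 1.34 for centromere and kinetochore proteins.

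Duct and trunk-like cells, the bipotent trunk progenitors and the ducts they form, gave a similar picture at a higher level. The module was at 6821 CPM in 283 Mettl3pKO cells and 6400.0 CPM in 318 WT cells (ratio 1.07, 1.05 to 1.08; 1.03 relative to the median of all genes). Of the 40 members 1 was at least 1.5-fold higher (11.8% of the 11898 genes measured) and 0 at least 1.5-fold lower (7.33%). An interval above 1 was found for 15 members (23.1% of all genes) and one below 1 for 7 members (16.2%). The member past 1.5-fold was Cdca2, at 81.2 CPM in Mettl3pKO and 50.2 CPM in WT (1.62, 1.39 to 1.89). Ckap2l was at 163 CPM in Mettl3pKO and 113 CPM in WT (1.45, 1.30 to 1.61), Cenpf at 279.8 CPM in Mettl3pKO and 199 CPM in WT (1.41, 1.30 to 1.52), and Mki67 at 521 CPM in Mettl3pKO and 381 CPM in WT (1.37, 1.29 to 1.45). Here Cdca2, Ckap2l and Cenpf ranked among the 4 highest, as they did in acinar-like cells.

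The lowest members in duct and trunk-like cells were Ndc80, the kinetochore's microtubule-binding subunit, at 44.3 CPM in Mettl3pKO and 62.1 CPM in WT (0.714, 0.599 to 0.850), and Smc4 at 461 CPM in Mettl3pKO and 552 CPM in WT (0.834, 0.790 to 0.882). Next came Cdc20 at 139 CPM in Mettl3pKO and 166 CPM in WT (0.838, 0.757 to 0.927) and Ccnb2 at 135 CPM in Mettl3pKO and 158 CPM in WT (0.857, 0.773 to 0.9499). Of the other members named in each class, Ccnb1 (0.997, 0.908 to 1.09), Plk1 (1.01, 0.878 to 1.15), Ube2c (0.971, 0.918 to 1.03) and Top2a (1.03, 0.975 to 1.08) had intervals that include 1, and Cdk1 was at 1.12 (1.04 to 1.20). By role, the summed mitotic kinases were at 1.10 (1.03 to 1.17) and the chromosomal passenger complex at 1.12 (1.07 to 1.19). Members of the anaphase-promoting complex group summed to 0.948 (0.906 to 0.993). All 4 of the lowest members again turned above 1 when cells of every depth were kept (1.08 to 1.23), which removes the match in depth.

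**Figure D3:**
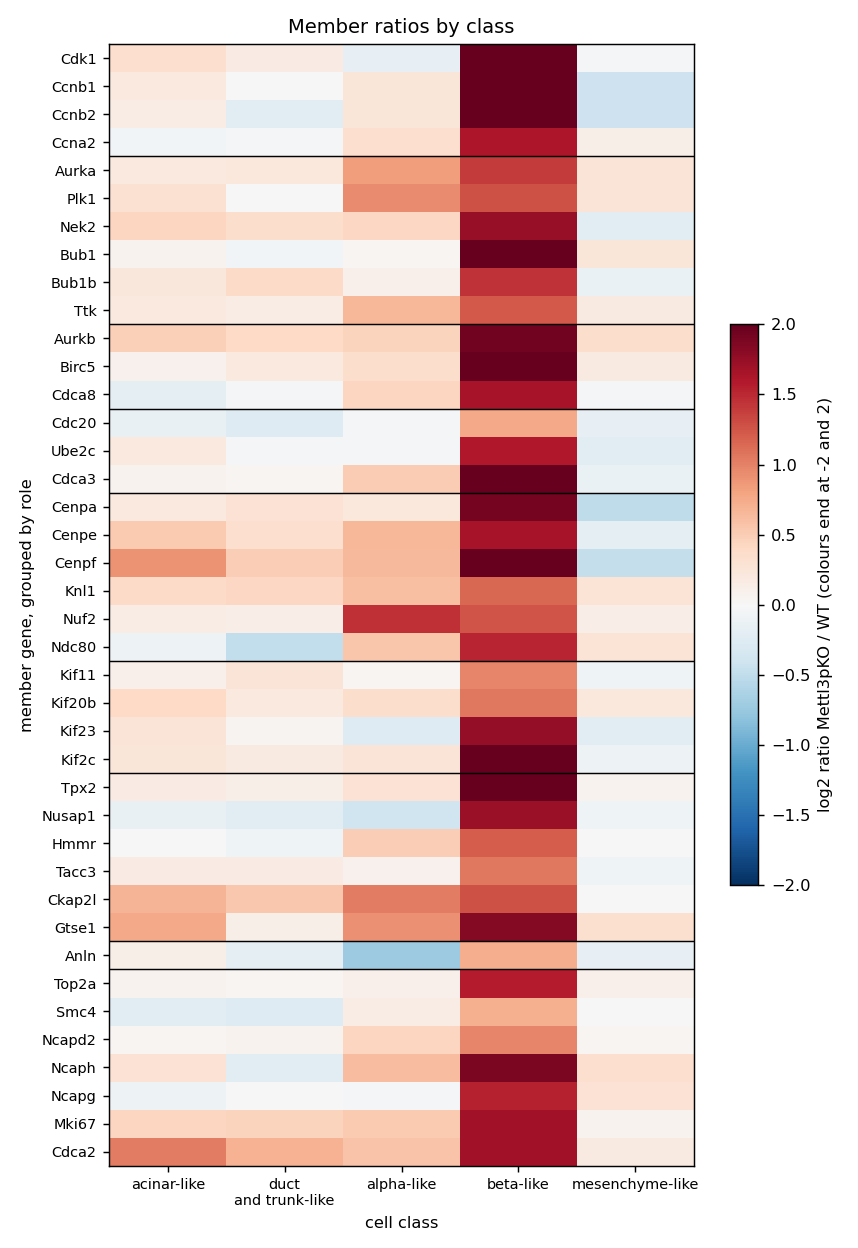
Log2 ratio of Mettl3pKO to WT (colour; red higher in Mettl3pKO, blue lower, colours ending at -2 and 2) for the 40 members (rows, grouped by role) in 5 classes (columns), cells with 13000 or more UMIs. The beta-like column is red for all 40 members, with log2 ratios of 0.71 to 2.76, and the mesenchyme-like column runs between -0.51 and 0.35.

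In acinar-like and duct and trunk-like cells the share of member-rich cells was higher in Mettl3pKO over the whole class. Among acinar-like cells 65.3% in Mettl3pKO (1230 cells; 63.1 to 67.5) and 59.6% in WT (563 cells; 56.4 to 62.7) had 10 or more member UMIs at 13000 UMIs per cell, and among duct and trunk-like cells 81.3% in Mettl3pKO (76.2 to 85.6) and 72.0% in WT (66.7 to 76.9). A member-rich acinar-like cell held 76.0 ± 49.4 member UMIs in Mettl3pKO and 69.2 ± 43.6 in WT, and a member-rich duct and trunk-like cell 111 ± 74.99 in Mettl3pKO and 117 ± 83.2 in WT (SD over cells). Cells near the limit, with 8 to 12 member UMIs, numbered 128 in Mettl3pKO and 51 in WT among acinar-like cells. Member-rich cells carried 97.4% of the acinar-like member UMIs in Mettl3pKO and 97.1% in WT. Within acinar-like clusters the share was 92.7% in Mettl3pKO and 84.8% in WT in c2, but lower in Mettl3pKO in c1 (49.6% against 57.1% in WT), c5 (44.3% against 51.6% in WT), c9 (21.9% against 24.3% in WT) and c4 (98.2% against 100% in WT). In the deepest band of acinar-like cells it was 77.9% in Mettl3pKO and 86.3% in WT.

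Within member-rich cells the make-up of the module differed. These cells were picked by the sum of the same members, and their mix of cycle phases and clusters was not matched between libraries. In acinar-like cells Cdca2 made up 1.24% of member UMIs in Mettl3pKO and 0.690% in WT (ratio of shares 1.79, 1.57 to 2.06), Cenpf 2.67% in Mettl3pKO and 1.66% in WT (1.61, 1.48 to 1.76) and Ckap2l 2.13% in Mettl3pKO and 1.52% in WT (1.40, 1.28 to 1.54). Smc4 made up 6.85% in Mettl3pKO and 8.93% in WT (0.767, 0.736 to 0.800) and Cdc20 2.37% in Mettl3pKO and 3.13% in WT (0.756, 0.705 to 0.811). Duct and trunk-like cells had each of these members on the same side of 1, with share ratios of 1.59 for Cdca2, 1.38 for Ckap2l, 1.34 for Cenpf, 1.28 for Mki67, 0.806 for Smc4 and 0.803 for Cdc20. In mesenchyme-like cells Cenpf was on the other side, at 0.701 (0.620 to 0.794). Cdca2 (1.17, 0.911 to 1.51), Mki67 (1.05, 0.962 to 1.15), Smc4 (1.02, 0.936 to 1.10), Ckap2l (0.98, 0.851 to 1.13) and Cdc20 (0.946, 0.794 to 1.13) had intervals that include 1, and differences between classes were not tested. Gtse1 stood at 1.43 (1.26 to 1.62) in acinar-like cells and at 0.94 (0.76 to 1.17) in duct and trunk-like cells.

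Shares were also taken within bands of depth and within clusters, here over all deep cells of a class and not only member-rich ones. In acinar-like cells the share ratios of the members followed kept their side of 1 across depth, and less so across clusters. These members were picked as the highest and lowest of the same acinar-like cells, so the bands and clusters are not separate support. In all 4 bands of depth the share ratio lay above 1 for Cdca2 (1.54 to 2.18), Cenpf (1.39 to 1.89), Ckap2l (1.29 to 1.49) and Gtse1 (1.41 to 1.58), and below 1 for Smc4 (0.69 to 0.79), Cdca8 (0.71 to 0.82), Cdc20 (0.70 to 0.95) and Nusap1 (0.68 to 0.97). Over the 5 acinar-like clusters with 30 or more cells in both libraries, Cdca2 and Gtse1 were above 1 in 5 (1.13 to 2.00 and 1.08 to 1.83) and Nusap1 below 1 in 5 (0.33 to 0.92). Cenpf was above 1 in 4 of 5, Ckap2l in 4 of 5, and Smc4 below 1 in 4 of 5. Cdc20 (0.744 to 1.69) and Cdca8 (0.578 to 1.34) were above 1 in 2 of 5. In both duct and trunk-like clusters Cdca2 (1.27 to 1.42) and Ckap2l (1.21 to 1.34) were above 1 and Smc4 (0.84 to 0.91) and Cdc20 (0.79 to 0.89) below it. Over the 3 bands of duct and trunk-like depth, Cenpf (0.847 to 1.45) and Cdc20 (0.680 to 1.04) each crossed 1 in 1 band.

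**Figure D4:**
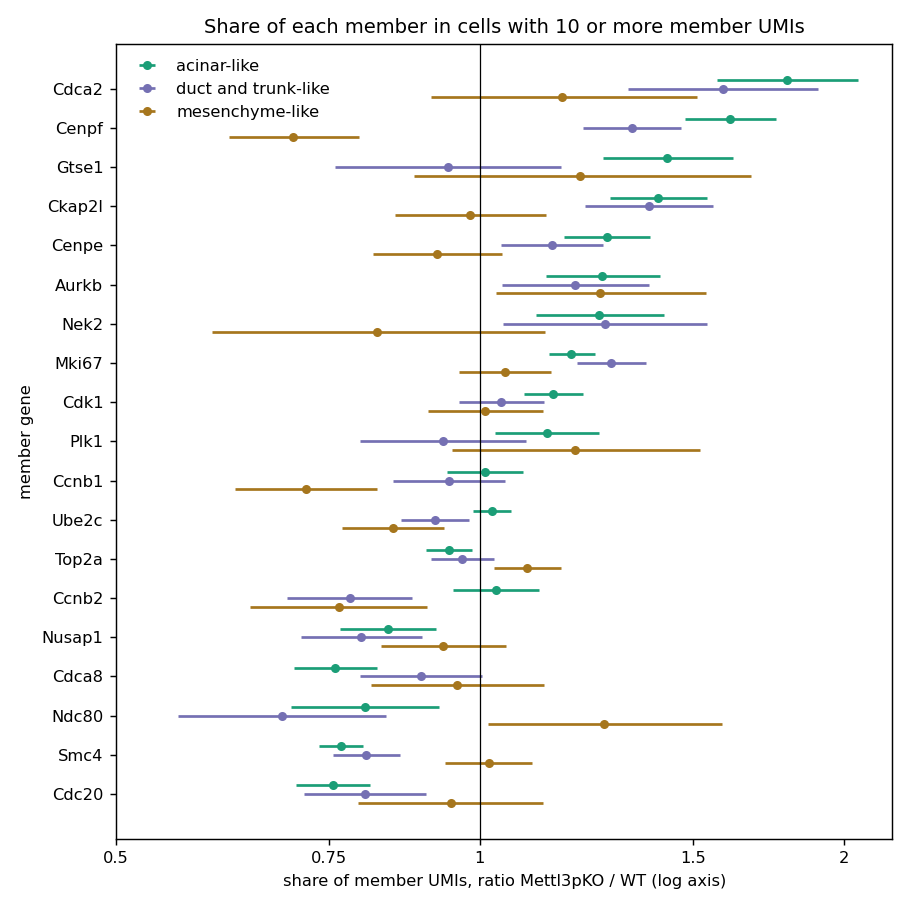
Ratio of Mettl3pKO to WT (log axis) in the share that each of 19 members takes of all member UMIs, within cells with 10 or more member UMIs, for acinar-like, duct and trunk-like and mesenchyme-like cells; bars are exact 95% intervals of counting error. Cdca2 lies at 1.79 and 1.59 in acinar-like and duct and trunk-like cells and Cenpf at 0.701 in mesenchyme-like cells.

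Mesenchyme-like cells, which do not descend from Pdx1+ progenitors, had a summed-level ratio whose interval includes 1 at matched depth, but not under every setting. The level was 9281 CPM in 172 Mettl3pKO cells and 9405 CPM in 104 WT cells (ratio 0.987, 0.967 to 1.01), with 0 of 40 members past 1.5-fold in either direction (7.57% and 4.89% of all genes were higher and lower). An interval above 1 was found for 7 members (7.25% of all genes) and one below 1 for 7 members (5.77%). Mki67 (1.05, 0.968 to 1.14), Cdk1 (0.985, 0.890 to 1.09) and Top2a (1.07, 1.01 to 1.14) were close to 1. The highest were Aurkb, the catalytic kinase of the chromosomal passenger complex, at 141 CPM in Mettl3pKO and 111 CPM in WT (1.28, 1.06 to 1.54), and the condensin subunit Ncaph at 114 CPM in Mettl3pKO and 90.1 CPM in WT (1.27, 1.03 to 1.56). The lowest were Cenpa, the centromeric histone, at 207 CPM in Mettl3pKO and 296 CPM in WT (0.702, 0.618 to 0.797), and Cenpf at 252 CPM in Mettl3pKO and 352 CPM in WT (0.718, 0.639 to 0.806). Ccnb1 was at 219 CPM in Mettl3pKO and 291 CPM in WT (0.754, 0.664 to 0.855). Member-rich cells made up 76.2% in Mettl3pKO (69.1 to 82.3) and 75% in WT (65.6 to 83.0). Within clusters the ratio was 0.748 (0.719 to 0.779) in c14 and 0.938 (0.914 to 0.961) in c22. With cells of every depth kept, the level was 8543 CPM in 278 Mettl3pKO cells and 4731 CPM in 1179 WT cells (ratio 1.81), with 38 of 40 members at least 1.5-fold higher, at median depths of 13458.5 UMIs in Mettl3pKO and 8898 in WT. The share of all genes past 1.5-fold is not given at every depth, so that count lacks a background.

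Erythroid-like cells, a blood class by name that also held acinar markers, had the lower level in Mettl3pKO. It was 3862 CPM in 40 cells against 7617 CPM in 47 WT cells (ratio 0.507, 0.486 to 0.529). Of the members, 26 of 40 were at least 1.5-fold lower (35.9% of all genes) and 0 of 40 at least 1.5-fold higher (22.4%). An interval below 1 was found for 28 members (31.8% of all genes) and one above 1 for 1 member, Ube2c (18.4%). All genes of the class were shifted by a median of -0.23 on the log2 scale, and relative to that shift the ratio was 0.593. The libraries filled the class from different clusters. A cluster led by globin genes held 38 Mettl3pKO and 18 WT cells, and one led by Car2 and Slc4a1 held 2 Mettl3pKO and 29 WT cells. Within the first cluster the level was 3569 CPM in Mettl3pKO and 2266 CPM in WT, the other way round. The member-rich erythroid-like cells held acinar markers at 39828 CPM in Mettl3pKO and 14584 CPM in WT. The remaining ones held them at 51850 CPM in Mettl3pKO and 83467 CPM in WT. Member-rich acinar-like cells themselves stood at 43793 CPM in Mettl3pKO and 58913 CPM in WT. The class is thus not free of acinar RNA, and the part of clusters or acinar RNA in the class ratio was not tested.

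The acinar-like ratio depended on depth and on the clusters compared. From the shallowest to the deepest band of cells it was 1.39 (13000 to 15999 UMIs), 1.33 (16000 to 19999), 1.17 (20000 to 24999) and 0.803 (25000 or more; 4267 CPM in 299 Mettl3pKO cells and 5312 CPM in 139 WT cells). Of the acinar-like cells, 26.7%, 26.2% and 21.8% in Mettl3pKO lay in clusters c4, c1 and c0, whereas 35.4%, 32.8% and 18.7% in WT lay in c5, c2 and c9. Within clusters the ratio was 0.580 in c5 (115 and 335 cells in Mettl3pKO and WT), 0.814 in c1, 1.04 in c4, 1.07 in c2 and 1.12 in c9, and weighting these clusters equally gave 0.957. Deep acinar-like cells also had a median of 10.6% mitochondrial UMIs in Mettl3pKO and 7.30% in WT, and with cells limited to 10% mitochondrial UMIs and 500 or more genes the ratio was 0.992 (756 Mettl3pKO and 809 WT cells). The sign of the acinar-like difference was therefore not stable, and its cause was not tested. Duct and trunk-like cells gave 1.02 in cluster c8 and 1.04 in c11, and 1.06, 1.15 and 0.826 over the 3 shallower bands. Beta-like cells lay in 1 cluster, and their level was 770.5 CPM in 60 Mettl3pKO cells and 175 CPM in 96 WT cells at 13000 to 15999 UMIs, and 1205 CPM in 37 Mettl3pKO cells and 122 CPM in 74 WT cells at 16000 to 19999 UMIs. Both WT levels lie below the 193 CPM of Fev precursor-like cells of any depth, which were shallower. The 13 WT Fev precursor-like cells with 13000 or more UMIs stood at 123 CPM, below 175 CPM and close to 122 CPM. Of the 74 WT cells 0 were member-rich, so the size of the fold in these bands rests on low WT levels. At 20000 to 24999 UMIs, with under 30 Mettl3pKO cells, the levels lay closer, at 1578 CPM in 22 Mettl3pKO cells and 1092 CPM in 39 WT cells.

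**Figure D5:**
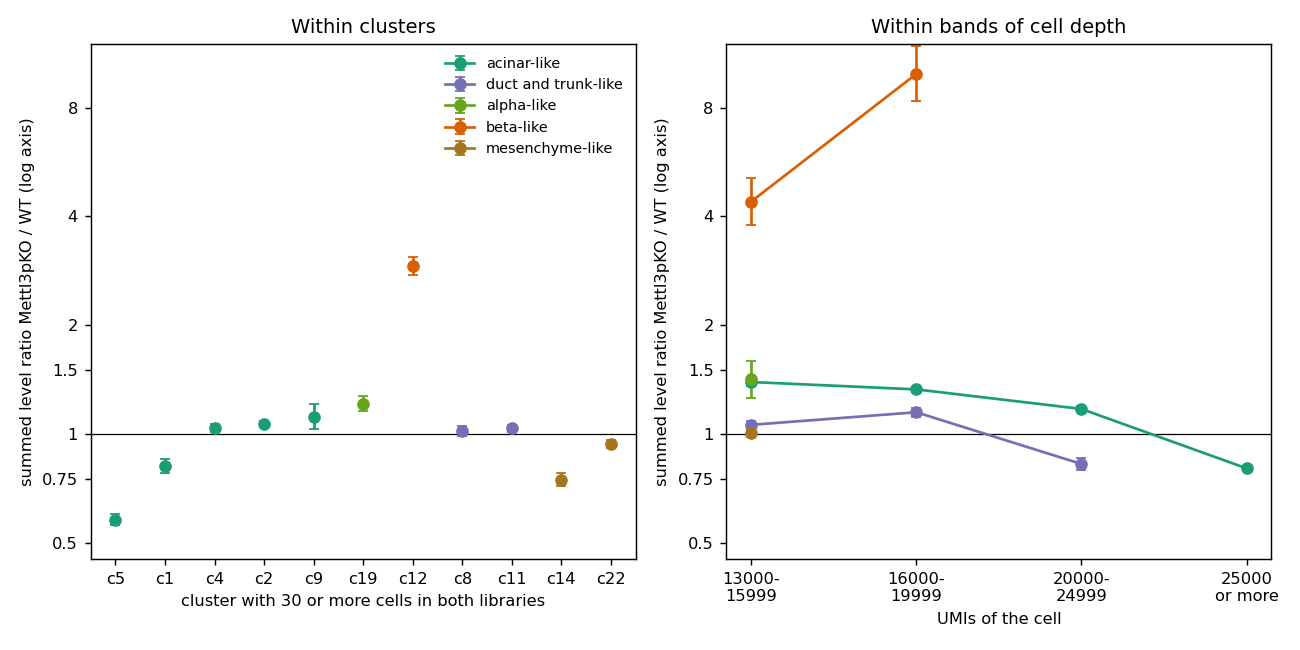
Ratio of Mettl3pKO to WT in the summed level (log axis) within clusters (left) and within bands of UMIs per cell (right) that have 30 or more cells in both libraries; colours are classes and bars exact 95% intervals of counting error. Acinar-like clusters run between 0.580 and 1.12 and acinar-like bands between 1.39 and 0.803, while the beta-like bands, above 4, are taken over WT levels of 175 and 122 CPM, below the 193 CPM of Fev precursor-like cells.

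Other cell cycle genes were read beside the module from lists of related function. In beta-like cells 35 of 40 measured other mitotic genes and 29 of 43 genes of DNA replication and S phase were at least 1.5-fold higher in Mettl3pKO (7.2% of all genes), with 0 at least 1.5-fold lower (7.15%), and the S-phase list summed to 1276 CPM in Mettl3pKO and 772 CPM in WT. In alpha-like cells 30 of 42 S-phase genes and 8 of 45 other mitotic genes were at least 1.5-fold higher (7.1% of all genes), and the S-phase list stood at 1538 CPM in Mettl3pKO and 882 CPM in WT. Cells with 10 or more S-phase UMIs made up 25% of beta-like cells in Mettl3pKO and 12.7% in WT, and 28.6% of alpha-like cells in Mettl3pKO and 19.4% in WT. In acinar-like cells 3 of 44 S-phase genes and 8 of 46 other mitotic genes were at least 1.5-fold higher, shares close to or below the background of 18.2%. Troap, a spindle-associated protein, was at 34.2 CPM in Mettl3pKO and 17.4 CPM in WT (1.97, 1.74 to 2.23), and Exo1, a nuclease of DNA repair, at 63.5 CPM in Mettl3pKO and 30.9 CPM in WT (2.06, 1.87 to 2.26).

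Among inhibitor and checkpoint genes in acinar-like cells, Cdkn1a and Btg2 added most to the differences of their lists. Of the measured CDK inhibitors 2 of 5, and of the G2 checkpoint genes 2 of 12, were at least 1.5-fold higher (18.2% of all genes). The checkpoint count is near that background, and 5 inhibitors are too few to read a share from. The CDK inhibitors summed to 733 CPM in Mettl3pKO and 472 CPM in WT (1.55, 1.52 to 1.59), led by Cdkn1a (p21), a p53 target that halts the cycle, at 330.1 CPM in Mettl3pKO and 165 CPM in WT (2.00, 1.92 to 2.08), without which the list was at 1.31 (1.27 to 1.35). The G2 checkpoint list summed to 1142 CPM in Mettl3pKO and 719 CPM in WT (1.59, 1.56 to 1.62), led by Btg2, an antiproliferative p53 target, at 809 CPM in Mettl3pKO and 432 CPM in WT (1.87, 1.83 to 1.92), without which it was at 333 CPM in Mettl3pKO and 287 CPM in WT (1.16, 1.13 to 1.20), near the module's own 1.13. In duct and trunk-like cells CDK inhibitors were at 1.05 (1.00 to 1.10) and Btg2 at 0.78 (0.72 to 0.84). Foxm1, the activator of the module, was at 30.2 CPM in Mettl3pKO and 14.9 CPM in WT acinar-like cells (2.02, 1.77 to 2.32) and at 44.7 CPM in Mettl3pKO and 26.6 CPM in WT duct and trunk-like cells (1.68, 1.36 to 2.09), and Fbxo5, the inhibitor of the anaphase-promoting complex, at 1.91 (1.78 to 2.04) and 1.93 (1.67 to 2.23) in acinar-like and duct and trunk-like cells. Both were picked from lists that moved little. In acinar-like cells 3 of 21 cell cycle transcription factors were at least 1.5-fold higher and 1 lower (18.2% and 7.55% of all genes). Their summed ratio was 0.980, or 1.10 without Lin37. Of the anaphase-promoting complex genes 1 of 16 was higher, with a summed ratio of 1.02, or 0.962 without Fbxo5. Duct and trunk-like cells had 1 of 21 and 1 of 16 higher (11.8% of all genes). Genes of dissociation stress moved with Cdkn1a and Btg2 in acinar-like cells, with 9 of 23 at least 1.5-fold higher, as did 6 of 13 mitochondrial transcripts (18.2% of all genes). Their part in the checkpoint values was not tested.

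Members varied together from cell to cell in both libraries. In acinar-like cells thinned to equal depth, the correlation of a member with the sum of the other 39 ran between 0.38 and 0.83 with a median of 0.64 over 40 members in Mettl3pKO, and between 0.43 and 0.80 with a median of 0.63 in WT. The highest was Ube2c (0.83) in Mettl3pKO and Ccna2 (0.80) in WT, and Bub1b was at 0.38 in Mettl3pKO and 0.43 in WT. Cells of 1 library share their run, so these are descriptions without a test.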

How the data were processed

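The authors deposited 1 table per library of raw UMI counts, cells in rows and genes in columns. The BD WTA Rhapsody Analysis Pipeline 1.8 made them, per the file headers, and the submitters' processing notes name genome build mm10 and Seurat. Each table ended inside its last line, and that 1 cell per library was dropped. The tables listed 23775 genes in Mettl3pKO and 23515 in WT. Total counts were 65779771 UMIs in Mettl3pKO and 80011421 in WT.

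Cells with 200 or more genes and at most 25% mitochondrial UMIs were kept (3623 in Mettl3pKO, 6372 in WT). Scrublet called 1 cell (0.0276%) in Mettl3pKO, where it did not work, and 318 (4.99%) in WT, so the 5% of highest doublet scores were removed in each library, which left 3442 and 6053 cells in Mettl3pKO and WT. Cells were clustered with scanpy 1.11.5 (2000 variable genes without 258 cell cycle genes, the members included; 30 components, 15 neighbours, Leiden resolution 1.0; 28 clusters), and clusters were named "X-like" from 20 marker lists. A cluster was left unnamed where its median doublet score passed 0.1.

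Levels are UMIs per 1000000 UMIs of a class (CPM), with exact Poisson 95% intervals; ratios carry exact conditional binomial and shares Clopper-Pearson intervals. Counts of genes past 1.5-fold take genes with 20 or more UMIs over both libraries. Medians of log2 ratios were computed with 0.5 UMIs added. Classes needed 30 or more cells in each library to be compared. Named members were Mki67, Top2a, Cdk1, Ccnb1, Plk1, Ube2c and the 4 highest and 4 lowest by the interval bound nearest 1 (2 of each in other classes), with further members under their role. The interval step was tested on simulated data. Members, lists and markers were chosen with earlier results of these data known.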

Additional observations from a re-analysis of the deposited data

How the results depend on the processing

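No paired analysis was possible because each genotype has 1 library. Summed ratios below are Mettl3pKO over WT, and counts are members at least 1.5-fold higher. The share of all genes past 1.5-fold is not given for these settings. The counts therefore have no background beside them and are not read as results about the module. With cells of every depth kept, the ratio was 1.33 with 11 members in acinar-like, 1.55 with 25 members in duct and trunk-like, 3.38 in beta-like, 1.501 with 26 members in alpha-like and 1.81 with 38 members in mesenchyme-like cells, and members turned above 1 (acinar-like Smc4 1.01, Cdca8 1.05, Cdc20 1.05, Nusap1 1.09; duct and trunk-like Smc4 1.18, Cdc20 1.23, Nusap1 1.29, Ndc80 1.15, Ccnb2 1.08); a share at 13000 UMIs could not be given there. With 13000 to 20000 UMIs it was 1.37 with 13 members in acinar-like (Smc4 1.06, Cdca8 1.00, Nusap1 1.23), 1.09 with 2 members in duct and trunk-like and 6.44 in beta-like cells. The beta-like ratio of shares was 6.13 there, over a low WT level. Over all settings that ratio of shares ran between 1.43 and 6.13, against 2.49 as reported. Without doublet removal the summed ratio was 1.03 in duct and trunk-like and 1.97 in beta-like cells, and with Scrublet's own calls 1.14 in acinar-like cells. The stricter cell filter gave 0.992 with 2 members in acinar-like (Top2a 0.962, Ccnb1 0.974, Ube2c 0.940) and 1.09 in duct and trunk-like cells. Cell cycle genes among the variable genes gave 1.02 in duct and trunk-like cells, and resolution 2.0 gave 1.14 in acinar-like and 1.05 in duct and trunk-like cells. In Y-positive, Xist-negative cells it was 1.11 in acinar-like (Top2a 0.906), 1.21 with 6 members in duct and trunk-like (Nusap1 1.00, Ccnb2 1.11), 2.23 in beta-like and 3.17 with 37 members in alpha-like cells. In Xist-positive, Y-negative cells it was 1.27 with 9 members in acinar-like (Nusap1 1.04), 0.878 in duct and trunk-like (Cdk1 0.898), 0.417 in alpha-like and 3.83 with 7 members in beta-like cells. At 2-fold, 1 acinar-like and 0 duct and trunk-like members were higher. Chosen after seeing the data, weighting cells equally gave 1.20 in acinar-like and 3.14 in beta-like cells, scaling by the median of all genes 1.04 (Top2a 0.966) and 1.03 in acinar-like and duct and trunk-like cells, weighting clusters equally 0.957 and 1.03 in the same classes, and leaving out the cell with most member UMIs 3.38 in beta-like cells. The cause of these shifts was not tested. Over these settings the summed ratio ran between 1.97 and 6.44 in beta-like, 0.417 and 3.17 in alpha-like and 0.784 (each cell named by its own markers) and 1.81 in mesenchyme-like cells; beta-like intervals rest on few member-rich cells. Class names are rebuilt, deposited cells may not include the shallowest, and 1 library per genotype means that animal, run and genotype cannot be told apart.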
